A study of Mus musculus with 64 samples.

Results

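CD64+ cells that lacked CD4 were followed on the surface protein of colon immune cells in T cell transfer colitis, and they numbered 8178 of 130442 cells kept from 9 antibody libraries. A cell was a member if its CD64 signal was above a threshold and its CD3, Ly-6G, Ly-6C, CD90.2 and CD4 signals were each at or below one. The signal compared each antibody with the others on the same cell: counts plus 1 were put on a natural log scale and centred on the average of all 11 antibodies. The cells were thus chosen by the signals of those 6 antibodies, whose levels are described here without a test. The other 5 set no threshold but entered each signal through the average. Tests on them are therefore not fully free of the choice of cells. Levels were tested for the other 5 antibodies only, CD11b, CD11c, CD103, KLRG1 and CD127. The share of members, which rests on the gate, was tested against week, a variable the gate did not use.

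The mice were BALB/c SCID, a strain that lacks its own T and B cells and keeps its myeloid cells. All groups, week 0 included, carry the label CD45RBhi transfer, the transfer of T cells that brings on colitis in such hosts. The 8 untreated libraries came from weeks 0 to 7, 1 per week, and 1 further library at week 7 came from mice treated with anti-IL-12p40, which binds a subunit shared by the cytokines IL-12 and IL-23. Each library was made from the pooled colons of 3 animals, sorted as EpCAM- and CD45+ cells of the lamina propria, and the sources used here do not give the age of the mice. A p-value for a trend compares the observed pairing of pools and weeks with all other pairings. With 1 pool per week, it cannot separate the week from other differences between pools, and the spread between animals is not known. The libraries held 12914066 to 28723452 antibody counts. Library pairs shared 0 to 3 member barcodes, and 30 to 110 of all barcodes.

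CD64 is the high-affinity receptor for IgG and is widely used to tell macrophages from dendritic cells in the gut. Most macrophages of the adult colon are renewed from blood monocytes, which arrive with high Ly-6C, then lose it while they gain CD64 and CD11c. Macrophages that carry CD4 are counted among the longer-lived ones of the gut wall, whereas those without CD4 include cells that monocytes replace. CD11b and CD11c are integrin chains of myeloid cells, and CD103 is an integrin chain of many gut dendritic cells and of T cells in the epithelium.

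The members carried the myeloid integrins, for which the gate set no threshold. A cell was called positive for CD11b or CD11c above the crossing point of 2 normal distributions fitted to the signal in all libraries together. CD11b was positive on 89.5% to 98.8% of members in the 8 untreated libraries, and CD11c on 66.8% to 93.3%. Median CD11b was 430 counts per cell at week 0, 241 at week 1, 164 at week 2, 280.5 at week 3, 247 at week 4, 289 at week 5, 205 at week 6, then 353 at week 7. CD3+CD4+ T cells of weeks 1 to 7, which should lack it, had medians of 4 to 10. Members of weeks 1 to 7 thus had 24.7 to 88.2 times the T cell median. CD11b and CD11c also occur on other myeloid cells, and the panel held no further macrophage antibody, so the name macrophage rests on CD64 together with these integrins.

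The antibodies of the gate gave the picture that the choice of cells set. Median CD64 on members lay between 57 and 184.5 counts in the untreated libraries and between 2 and 9 on T cells. On treated members it was 52, with a lower quartile of 8, and on treated T cells 4. Median CD4 was 5 to 22 counts on members and 144 to 276 on T cells of the untreated libraries. Ly-6G, which marks neutrophils, had medians of 3 to 25 on untreated members. Members within 0.25 of the CD64 threshold numbered 599, with a median of 23 CD64 counts, and the 733 cells as close on the other side had a median of 12. At the CD4 threshold the 459 cells just inside had a median of 59 CD4 counts and the 454 just outside 70. At the Ly-6C threshold the 689 cells inside had a median of 427 Ly-6C counts and the 647 outside 606. At the CD90.2 threshold 228 cells lay as close inside and 209 outside. The gate therefore divided a continuous range for CD64, CD4, Ly-6C and CD90.2, and the members still held cells with much Ly-6C antibody.

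**Figure D1:**
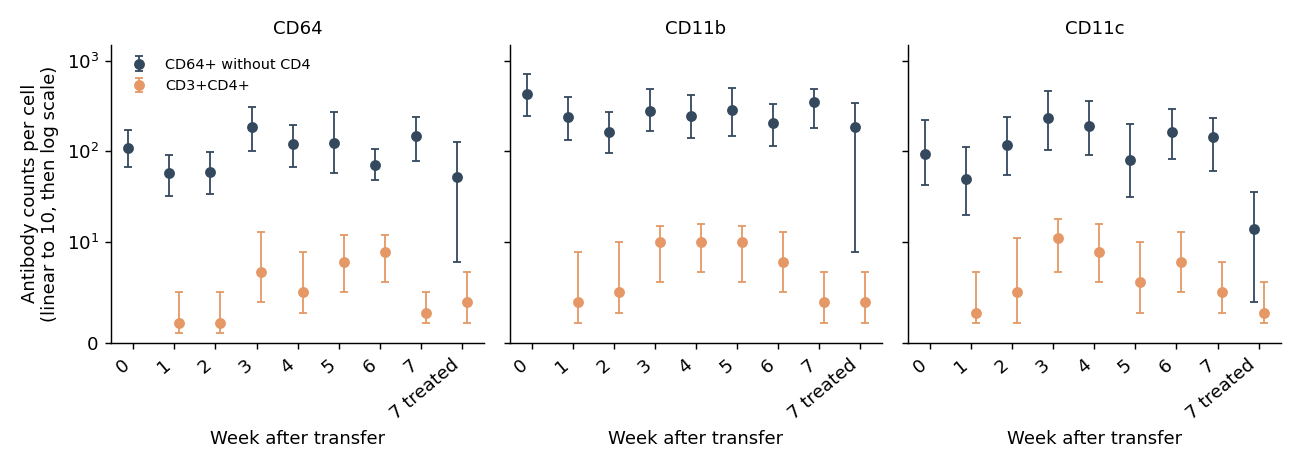
Median antibody counts per cell (points) with lower and upper quartiles (bars) for CD64, CD11b and CD11c, by week after transfer, on CD64+ cells without CD4 and on CD3+CD4+ T cells of the same library. The vertical axis is linear up to 10 and logarithmic above. Week 0 has no T cell point. CD11c on the treated members has a median of 14, against 49 to 233 in the untreated libraries.

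CD64+ cells without CD4 were most frequent at week 4 and least frequent at week 7. They made up 5.96% of kept cells at week 0 (exact 95% interval 5.60 to 6.33), 6.70% at week 1, 7.78% at week 2, 6.88% at week 3, then 14.7% at week 4 (14.2 to 15.3). They then made up 3.14% at week 5, 5.17% at week 6, then 0.462% at week 7 (0.348 to 0.601). The week 7 library held 55 members among 11907 cells, and that of week 4 held 2640 among 17912. These intervals cover counting error only. The share did not follow the week in one direction (Spearman's rho -0.52, two-sided exact permutation p 0.197, adjusted p 0.393 over 2 shares, Pearson's r -0.37 with exact p 0.387, n = 8 libraries). Without weeks 0 and 7, r was -0.19.

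Transferred T cells fill part of the immune fraction, so the share was also taken over CD3- cells. CD3- cells made up 99.4% of the kept cells at week 0, then 11.9% at week 7. Members made up 5.99% of CD3- cells at week 0, 7.22% at week 1, 13.3% at week 2, 17.9% at week 3, then 33.0% at week 4. They made up 11.1% at week 5, 11.7% at week 6, then 3.87% at week 7 (2.93 to 5.00). On this base too, week 4 was the highest and week 7 the lowest. No trend in one direction was found (rho -0.02, exact permutation p 0.977, adjusted p 0.977, r 0.05 with exact p 0.913, n = 8), and r without weeks 0 and 7 was 0.18. Shares cannot tell fewer macrophages in the colon from more of the other sorted cells.

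**Figure D2:**
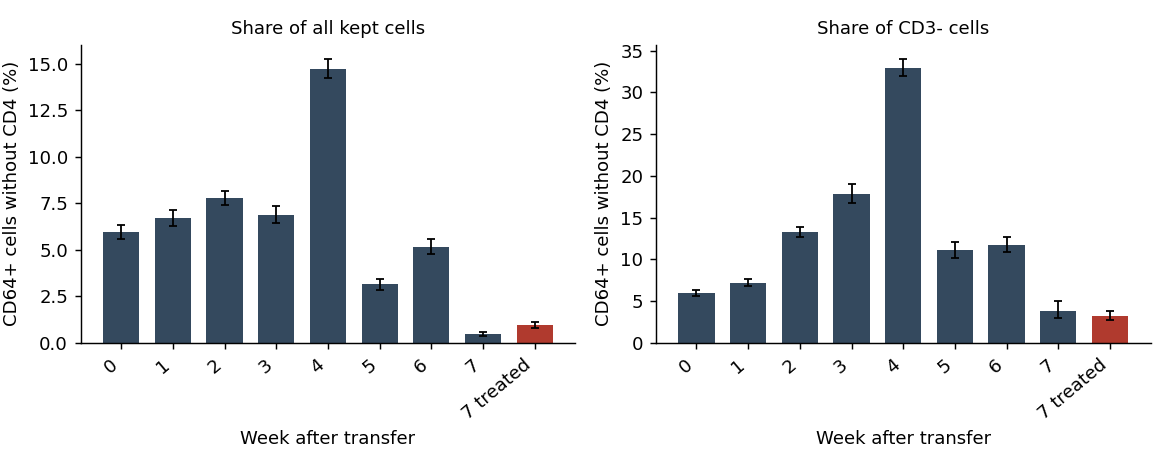
Share of CD64+ cells without CD4 among all kept cells (left) and among CD3- cells (right), in percent, by week after transfer. Each bar is 1 library and its error bar the exact 95% binomial interval. The untreated bars (dark) peak at week 4, at 14.7% and 33.0%. The treated bar (red) is at 0.957% and 3.22%.

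The other conditions of the gate kept out different CD64+ cells at different weeks. At week 0, 1261 of 3552 CD64+ cells (35.5%) were kept out by CD90.2 alone, and CD4 alone kept out 544 (15.3%). At week 1 CD90.2 alone kept out 657 of 2676 (24.6%), and from week 2 to untreated week 7 it kept out 0% to 4.24%. CD90.2 is a surface protein of T cells and innate lymphoid cells. Ly-6C alone kept out 4.50% of CD64+ cells at week 0, 20.7% at week 1 and between 27.9% and 55.5% from week 2 on. The gate thus took in 28.1% of all CD64+ cells at week 0 and up to 46.3% at week 6, the highest share in these libraries.

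Set against CD4+ cells that met every other condition, members were the larger population in each library. They were 64.7% of both together at week 0, then 82.8% at week 1. They were 86.4% at week 2, 94.0% at week 3, 88.5% at week 4, 79.3% at week 5, 88.9% at week 6, and week 7 had 55 members beside 6 CD4+ cells. CD4+ cells had numbered 544 at week 0. Set against Ly-6C-high cells of the same gate, members were 86.2% of both together at week 0, then 60.4% at week 1. They were 38.0% at week 2, 52.0% at week 3, 62.3% at week 4, 51.2% at week 5, 55.7% at week 6, then 35.3% at week 7. Week 0 stood above the other untreated weeks in that balance. These counts follow from the gate and carry no test.

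**Figure D3:**
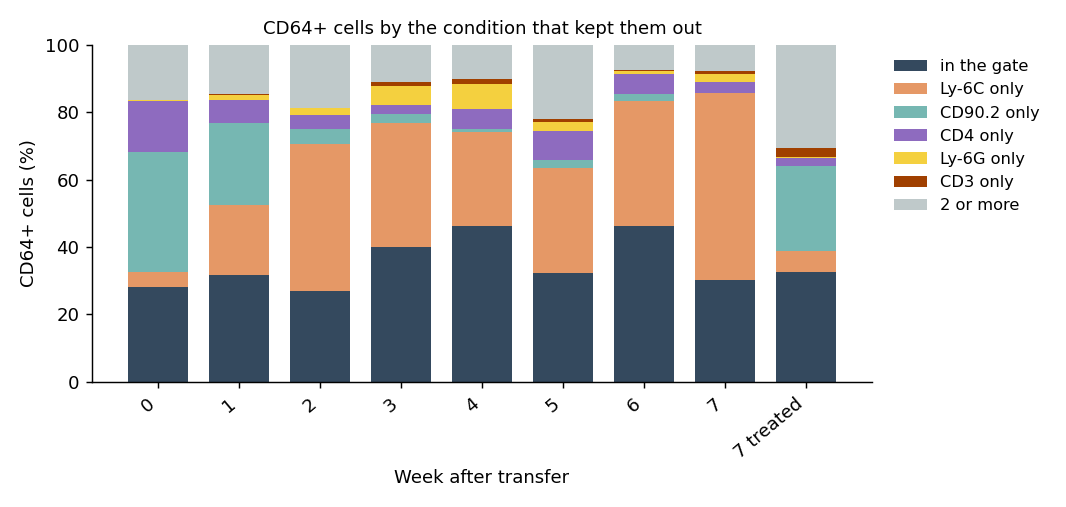
CD64+ cells of each library, in percent, by the condition that kept them out of the gate, by week after transfer. The lowest segment is the share in the gate. CD90.2 alone accounts for 35.5% at week 0 and Ly-6C alone for 55.5% at untreated week 7.

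The CD11c+ share ranged more widely between the untreated libraries than the CD11b+ share. Median CD11c on members was 94 counts at week 0, 49 at week 1, 118 at week 2, 233 at week 3, 188 at week 4, 81 at week 5, 165 at week 6, then 143 at week 7. T cells had medians of 3 to 11. Members therefore carried CD11c at 13.5 to 28.6 times the T cell median of their own library in weeks 1 to 7. CD11c was positive on 72.3% of members at week 0, 70.9% at week 1, 92.4% at week 2, 86.5% at week 3, 93.3% at week 4, 66.8% at week 5, 86.3% at week 6, then 72.7% at week 7. Weeks 2, 3, 4 and 6 were thus high, and weeks 0, 1, 5 and 7 low.

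In the ratio of CD11b to CD11c within a cell the other antibodies cancel, although the added count of 1 draws it towards 0 in shallow cells. Its median, on a log2 scale with 1 added to each count, was 2.18 at week 0, 2.18 at week 1, 0.44 at week 2, 0.20 at week 3, 0.43 at week 4, 1.76 at week 5, 0.36 at week 6, then 1.43 at week 7. CD11c exceeded CD11b on 9.59% to 17.4% of members in weeks 0, 1, 5 and 7, and on 36.4% to 44.3% in weeks 2, 3, 4 and 6. The quartiles within a library spanned about as much as the gap between libraries, from 1.03 to 3.14 at week 0 and from -0.84 to 1.28 at week 3. The ratio showed no trend with week that passed (rho -0.43, exact permutation p 0.299, adjusted p 0.598, r -0.35 with exact p 0.383, n = 8), and r without weeks 0 and 7 was -0.31.

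None of the 10 measures within members passed the trend test: the 5 levels, the ratio, and the shares positive for CD11b, CD11c, CD103 and for CD11b and CD11c together. The share called was 0%, and the count below an unadjusted exact p of 0.05 was also 0, by Spearman and by Pearson. The lowest adjusted p among them was 0.540 (exact permutation). With 8 libraries, a p that misses the threshold does not show that no trend exists.

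Cells positive for both integrins were the largest class of members in every untreated library, from 61.8% at week 5 to 91.7% at week 2. CD11b+CD11c- cells made up 26.5% at week 0, 27.0% at week 1, 7.17% at week 2, 11.8% at week 3, 6.25% at week 4, 27.7% at week 5, 12.7% at week 6, then 21.8% at week 7. CD11b-CD11c+ cells were few, from 0% to 5.67%. Cells with neither made up 0.429% to 5.49% of untreated members.

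**Figure D4:**
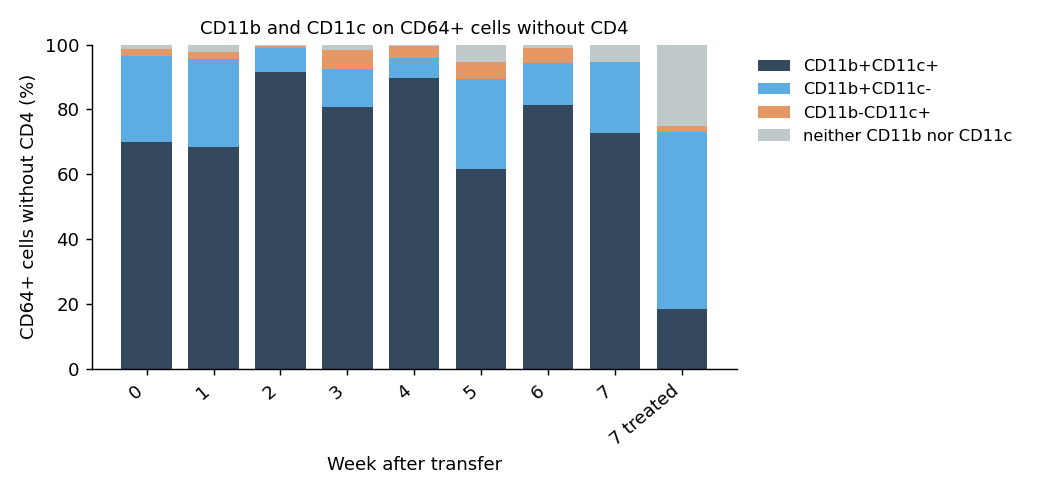
Members of each library, in percent, by CD11b and CD11c, by week after transfer. Cells with both integrins are the largest class in the 8 untreated libraries (61.8% to 91.7%) and 18.5% of the treated library.

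A few members carried CD103. The CD103+ share was 12.8% at week 0, 8.52% at week 1, 2.45% at week 2, 1.5% at week 3, 4.39% at week 4, 11.7% at week 5, 1.69% at week 6 and 1.82% (1 of 55 cells) at week 7. Weeks 0, 1 and 5 were the highest, and most of their CD103+ members also carried CD11b. The CD11b-CD11c+ members were unlike the rest at some weeks. Of them, 86.4% were CD103+ at week 0 (22 cells), 80.0% at week 1 (20 cells), 62.8% at week 4 (94 cells) and 72.7% at week 5 (22 cells), but 12.2% at week 3 (49 cells) and 7.14% at week 6 (28 cells). At week 2, 25% of them were CD103+ (12 cells). Their median CD64 against that of members with both integrins was 27.5 and 114 counts at week 0, 12 and 58 at week 1, 19 and 59 at week 2, 147 and 177 at week 3, 20 and 121 at week 4, 30.5 and 130.5 at week 5, and 63 and 70 at week 6. The gap was thus narrow at weeks 3 and 6, the weeks with few CD103+ cells among them. CD11c with CD103 is the marker pattern of dendritic cells fixed for this panel, with no condition on CD11b. The part of such cells in the CD103+ share was not tested.

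KLRG1 and CD127 are receptors of lymphoid cells. Their medians on members were 1 to 5 and 2 to 13 counts in the untreated libraries. CD3+CD4+ T cells of weeks 1 to 7 had medians of 0 to 6 and 2 to 13, and these ranges overlap those of members. KLRG1+ members made up 0% to 3.21% in the untreated libraries. In the treated library they made up 9.24% (11 of 119 cells, interval 4.71 to 15.9). The mixture for CD127 did not separate positive from negative cells (Ashman's D, the distance between its components in units of their spread, was 1.5), so its positive share is not used.

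Members had more CD11b relative to CD11c than CD4+ cells of the same library that met the other conditions. The difference in the median log2 ratio was 0.71 at week 0, 0.61 at week 1, 0.53 at week 2, 0.85 at week 3, 1.31 at week 4, 0.92 at week 5, then 1.24 at week 6. Week 7, with 6 CD4+ cells, was below the minimum of 20 and was left out. Members averaged 1.08 and CD4+ cells 0.20, a mean difference of 0.88 ± 0.300 (SD, n = 7 libraries, higher in 7 of 7, two-sided exact sign-flip permutation p 0.0156, adjusted p 0.0185 over 13 differences). That p of 0.0156 is the smallest that 7 libraries allow. The difference was 0.42 without CD90.2 in the gate and 0.56 with summed counts, and passed in both. Of the 13 differences tested against the 3 related populations, 11 passed (84.6%), so passing by itself sets no single antibody apart.

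A level was the log2 of the count plus 1 centred on the average of the 5 antibodies outside the gate. The 5 levels are thus tied, since a higher level of 1 antibody lowers the others, and the differences that passed are not independent. The CD11b level was 0.60 ± 0.118 higher on members than on CD4+ cells (SD, n = 7, 7 of 7, exact permutation, adjusted p 0.0185). It was 0.37 with summed counts and 0.93 centred on 11 antibodies. The median CD11b counts of members and CD4+ cells were 430 and 302 at week 0, 241 and 192.5 at week 1, 164 and 129 at week 2, 280.5 and 170 at week 3, 247 and 167 at week 4, 289 and 351.5 at week 5, and 205 and 90 at week 6. Members thus had the lower CD11b count at week 5, where CD4+ cells had a median total of 1992.5 counts and members 1064. The week 5 CD4+ cells also had medians of 29 CD3 and 145 CD90.2 counts, against 8 and 47 on members. The gaps were smaller at the other weeks, and at week 6 CD4+ cells had the lower medians, 6 and 79.5 against 9 and 102. The part of doublets with T cells was not tested. The CD11c level differed by -0.34 ± 0.158 (lower in 7 of 7, same exact adjusted p), but it lost the call in 4 other settings and it was 0.005 when centred on all 11 antibodies (adjusted p 0.953). The CD127 level differed by -0.29 ± 0.175 (adjusted p 0.0185), and it too changed sign on that scale (0.07, adjusted p 0.440). CD103 (-0.02, adjusted p 0.531) and KLRG1 (0.05, adjusted p 0.508) did not pass. The ratio and the CD11b level are the differences from CD4+ cells that passed in all 20 other settings.

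Against Ly-6C-high cells that met the other conditions, where monocytes would fall, members had more CD11c. Median CD11c was 94 counts on members and 15 on Ly-6C-high cells at week 0, 49 and 8 at week 1, 118 and 15 at week 2, 233 and 36 at week 3, 188 and 32 at week 4, 81 and 18 at week 5, 165 and 27 at week 6, and 143 and 42 at week 7. Members had the higher median in each of the 8 libraries. The CD11c level was higher on members by 1.82 ± 0.388 (SD, n = 8 libraries, 8 of 8, exact sign-flip permutation p 0.00781, adjusted p 0.0185). The log2 CD11b to CD11c ratio averaged 1.12 on members and 3.65 on Ly-6C-high cells, a difference of -2.53 ± 0.383 (lower in 8 of 8, same exact adjusted p). It was -1.63 after thinning to 200 counts and -1.64 when gated on counts per 1000, and passed in both, and the CD11c level difference was 1.18 with summed counts. By week the ratio difference was -1.76 at week 7 and between -2.86 and -2.22 at the other weeks. Ly-6C-high cells had median totals of 1727 to 5874.5 counts, against 577 to 1399 on members, and median Ly-6C counts of 1368.5 to 5115.

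The CD11b level was -0.73 ± 0.297 on members relative to Ly-6C-high cells (adjusted p 0.0185), but it was 0.15 (adjusted p 0.0305) after every cell was thinned to 200 counts. Median CD11b counts of members and Ly-6C-high cells were 430 and 522 at week 0, 241 and 243 at week 1, and 164 and 173 at week 2. They were 280.5 and 308 at week 3, 247 and 249.5 at week 4, and 289 and 297.5 at week 5. At weeks 6 and 7 they were 205 and 238, and 353 and 367. The counts were thus close at most weeks, with the lower median on members throughout. KLRG1 (-0.34 ± 0.101), CD127 (-0.30 ± 0.218) and CD103 (-0.29 ± 0.205) also passed at an adjusted p of 0.0185 and changed sign when centred on 11 antibodies. KLRG1 and CD127 lost the call without CD90.2 in the gate (adjusted p 0.079 and 0.122), CD103 with the CD64 threshold lowered (0.12), and KLRG1 and CD103 with summed counts (0.852 and 0.694). By construction, the higher CD11c level of members lowers their other levels. The median KLRG1 count was lower on members than on Ly-6C-high cells only at week 6, at 3 against 4. Median CD127 and CD103 counts were lower on members only at weeks 3 and 6. CD11c and the ratio were the differences from Ly-6C-high cells that passed in all 20 other settings.

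CD64- cells that were positive for CD11c and met the other conditions, where gut dendritic cells would fall, had less CD11b relative to CD103 than members. Their median CD103 was 213 counts at week 0, 116.5 at week 1 and 13 to 50.5 afterwards, against 4 to 19 on members. Their median CD11b was 8 to 23. The log2 CD11b to CD103 ratio averaged 4.49 on members and -1.39 on these cells, a difference of 5.88 ± 1.81 (SD, n = 8, higher in 8 of 8, exact sign-flip permutation p 0.00781, adjusted p 0.0185). The median ratio of these cells was below 0 in 7 of 8 libraries and 0.98 at week 2, where CD11b exceeded CD103 as it did on members. The difference was 8.35 and 8.84 at weeks 0 and 1 and 4.09 to 6.31 from week 2 on. CD103 was positive on 52.6% to 84.7% of the CD64-CD11c+ cells.

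**Figure D5:**
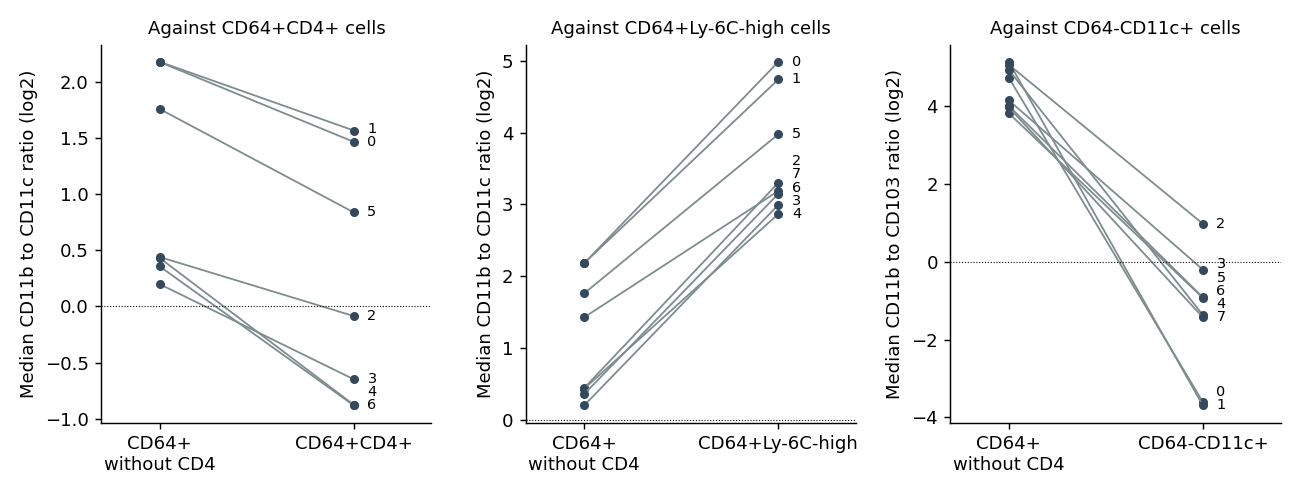
Median log2 ratios per untreated library (points joined by lines, labelled by week) on CD64+ cells without CD4 and on a related population. The panels show CD11b to CD11c against CD64+CD4+ cells (7 libraries) and Ly-6C-high cells (8 libraries), and CD11b to CD103 against CD64-CD11c+ cells (8 libraries). All lines of a panel slope the same way.

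Anti-IL-12p40 was compared at week 7 with 1 library on each side, so there is no test, and a difference was called large by size only. That rule asked for a ratio of at least 1.5 either way, exact 95% intervals that do not overlap and a treated value outside the range of untreated weeks 5 to 7. Members were 119 of 12437 treated cells (0.957%, interval 0.793 to 1.14) and 55 of 11907 untreated cells (0.462%, 0.348 to 0.601), a ratio of 2.07. That ratio was 0.871 without Ly-6C in the gate, 1.4 after thinning to 200 counts, 1.46 with the CD64 threshold raised, 3.67 without CD90.2 in the gate and 3.76 with the CD64 threshold lowered, so its direction depended on the Ly-6C condition. The treated value lay within the untreated range of weeks 5 to 7, 0.462% to 5.17%, so it was not called large. The lower end of that range is the untreated week 7 value itself. No rise up to 5.17% could therefore be called large, and the missing call does not show that the shares were alike. Among CD3- cells the order was the other way, 3.22% treated (2.68 to 3.85) and 3.87% untreated (2.93 to 5.00), and these intervals overlapped.

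The treated members had little CD11c. Their median was 14 CD11c counts, against 143 on untreated members of week 7 and 3 on the treated library's T cells. Median totals of all antibodies on members were 530 treated and 1361 untreated. Lower CD11c was not particular to members. Ly-6C-high cells, 23 treated and 101 untreated, had medians of 10 and 42 CD11c counts, and 4.35% and 28.7% of them were CD11c+. CD64-CD11c+ cells, chosen for CD11c, had medians of 111 and 180.5, and T cells 3 and 5. CD11c was positive on 24 of 119 treated members (20.2%, interval 13.4 to 28.5) and 40 of 55 untreated members (72.7%, 59.0 to 83.9), a ratio of 0.277. The treated share lay below all 8 untreated libraries. Cells with both integrins were 18.5% and 72.7% (ratio 0.254). Of the 5 shares compared, 3 were large by this rule (60%). The CD11c+ share and the share with both integrins were nearly the same cells, 24 and 22 treated, and 40 and 40 untreated.

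The other large share was that of cells with neither integrin, 30 of 119 treated (25.2%) and 3 of 55 untreated (5.45%). Those 30 cells had a median total of 74 antibody counts, whereas the treated members as a whole had 530 and the treated library 1566. Median CD64 on the 30 cells was 4 counts, the same as on the treated library's T cells. Among members with at least 200 counts, 2 of 85 treated and 0 of 52 untreated had neither. CD11b was positive on 73.1% of treated and 94.5% of untreated members, and on 97.6% and 100% of those with at least 200 counts. CD11c was positive on 22 of 85 such treated members (25.9%, interval 17.0 to 36.5) and 40 of 52 untreated (76.9%, 63.2 to 87.5). The difference in CD11c was thus about as large among the deeper cells, and that in cells with neither was not found there.

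The treated library also differed in which CD64+ cells the gate kept out. CD90.2 alone kept out 92 of 366 treated CD64+ cells (25.1%) and 0 of 182 untreated ones of week 7, but 24.6% at untreated week 1. Ly-6C alone kept out 23 treated (6.28%) and 101 untreated (55.5%). Members were 83.8% of members and Ly-6C-high cells together in the treated library (interval 76.7 to 89.4), and 35.3% in the untreated one (27.8 to 43.3). The treated interval held the week 0 value of 86.2%, and Ly-6C alone kept out 4.50% at week 0. Other treated values were unlike week 0. The CD11c+ share of members was 20.2% treated and 72.3% at week 0. Members were 93.0% of members and CD4+ cells together in the treated library and 64.7% at week 0. CD103 was positive on 10 of 119 treated and 1 of 55 untreated members, a difference that was not large by the rule. Whether the animals, the pool, the sort or the treatment set the treated library apart cannot be told apart with 1 library.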

How the data were processed

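Surface protein was measured with TotalSeq antibodies and droplet capture. The authors deposited whole-number counts of 11 antibodies per barcode, not normalized, per the file headers and the values. Cell Ranger 6.0.2 and Seurat 4.1.1 are listed, without a role, per the submitters' processing notes. Of 64 samples, 55 were not analysed here. Barcodes with fewer than 50 counts or above the 99th percentile of their library were left out, which kept 130442 of 131917. No doublet caller was run, since antibody counts alone lack its usual input, so doublets remain. The gate thresholds on the centred log ratio were CD64 0.105, CD3 -0.155, Ly-6G 0.982, Ly-6C 3.162, CD90.2 2.035 and CD4 0.652. Positive thresholds came from mixtures fitted on 2000 cells per library (CD11b 0.686, CD11c 0.463, CD103 0.124, KLRG1 -0.56). Within-member medians needed 20 cells. Trends used two-sided exact permutation of Spearman's rho, and paired differences the exact sign-flip test, each Benjamini-Hochberg adjusted at 0.05. Intervals are Clopper-Pearson. All 11 antibodies are named. Members, gates and marker lists were chosen with earlier results of these data known, so the tests are no independent support. Alternatives changed filters, thresholds, gate antibodies, scale, summary and libraries. Python 3.11.15, numpy 2.4.6, scipy 1.17.1 and scikit-learn 1.9.0 were used, and the statistics were tested on simulated data.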

Additional observations from a re-analysis of the deposited data

How the results depend on the processing

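Of 637 recomputed values, 115 of the main and 453 of the other values kept their direction and call (or, for values with no test, stayed within their interval). Counts of results that passed or were large were held as kept if equal or within a ratio of 1.5. The count of paired differences that passed, 11 in the main setting and 10 when thinned, was thus held as kept. The ratio differences of CD11b to CD11c against CD4+ cells (0.42 to 0.94) and Ly-6C-high cells (-2.85 to -1.63), and of CD11b to CD103 against CD64-CD11c+ cells (4.14 to 6.76), passed in all 20 settings. So did the CD11b level against CD4+ cells and the CD11c level against Ly-6C-high cells. The lower treated CD11c+ share was large in all 12 settings (ratio 0.228 to 0.418). The share with neither integrin was not large with counts per 1000 (2.07) and had no ratio in 5 settings, 200 counts or more among them, where the untreated share was 0. The CD11b+ share became large in 3 of 12 settings (lowest ratio 0.511). No within-member trend passed in any setting. The paired differences were not run for gates without CD4 or Ly-6C, where members would include the compared cells.

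The treated to untreated ratio of the member share was 1.4 thinned to 200 counts, 1.46 with the CD64 threshold raised, 3.76 with it lowered, 3.67 without CD90.2 in the gate, 0.871 without Ly-6C, and 3.22 at 200 counts or more without CD90.2, a setting chosen after seeing the data. The cause was not tested. The trend of the CD3- share, near 0, changed sign with CD64 lowered (0.12), without Ly-6C (0.10), with counts per 1000 (0.0238) and with Pearson's r (0.0515), and leaving out 1 library gave -0.29 to 0.46, the highest without week 7. None of these passed.

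Other values changed sign as follows, and the cause was not tested. With CD64 lowered, the trend of the CD11b+ share was 0.0714 and of the CD11c+ share -0.21, and against CD4+ cells CD103 was 0.10 and KLRG1 -0.0188. With CD64 raised, the KLRG1 trend was -0.12. Centred on 11 antibodies, differences from CD4+ cells were 0.30 for CD103, 0.00494 for CD11c and 0.066 for CD127, with KLRG1 now passing at 0.32 (exact adjusted p 0.0226, as for CD103), those from Ly-6C-high cells were 0.16 for CD103, 0.18 for CD127 and 0.16 for KLRG1, and trends were -0.29 for CD11c and -0.48 for KLRG1. With counts per 1000, the CD11c+ trend was -0.17 and KLRG1 against CD4+ cells -0.0699. Without CD4 in the gate, the CD11c+ trend was -0.0238 and that of cells with both integrins -0.0714. Without CD90.2, the CD11b+ trend was 0.10 and the KLRG1 trend -0.83 (adjusted p 0.154). Without Ly-6C, the trends of the CD11c+ share and of cells with both integrins were -0.43 each, and of the CD11c level -0.0238. With summed counts, trends were -0.19 for CD103, 0.10 for CD127 and -0.19 for KLRG1, and against CD4+ cells CD103 was 0.25 and KLRG1 -0.0801. Thinned, KLRG1 against CD4+ cells was -0.11 and CD11b against Ly-6C-high cells 0.15. Leaving out 1 library, the trend of the CD11c+ share ran from -0.18 to 0.36, of both integrins from -0.14 to 0.36, of CD127 from -0.39 to 0.11 and of KLRG1 from -0.43 to 0.32. The CD11c level against CD4+ cells lost its call thinned (-0.22, adjusted p 0.118), with CD64 lowered, without CD90.2 and with counts per 1000.

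Cell populations were paired within libraries. Between weeks and treatments no paired analysis was possible because each has 1 library and the replicate numbers only name samples. Thinning and low totals limit the treated library most: 28.6% of its members had fewer than 200 counts.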
